A study of Mus musculus with 8 samples.

Results

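Ubxn2a and Fam126a are 2 of the 56748 genes of a count table from mouse blood, and were taken from it by gene name. They were selected on the counts themselves: earlier results of these data showed both higher after fucoidan in every library, with little spread between libraries. Their difference between the groups is therefore given below as a description, with no test. The fucoidan group held 3 libraries and the saline group 5, each titled as a biological replicate, from peripheral blood mononuclear cells of wild-type male C57BL/6J mice. Fucoidan, a sulphated seaweed polysaccharide from Undaria pinnatifida, was gavaged daily at 200 mg per kg for 1 month from 8 weeks of age, and controls received saline in the same way. The treatment text of the fucoidan libraries names saline, whereas their titles and characteristics name fucoidan, and the titles were followed. The sources used here do not say whether a library came from 1 mouse or from pooled blood.

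Ubxn2a encodes a small adaptor with a UBX domain, the fold by which a family of cofactors docks on p97 (gene Vcp). p97 is a ring-shaped ATPase that pulls ubiquitin-tagged proteins out of membranes and complexes so that the proteasome can degrade them, and it drives the removal of misfolded proteins from the endoplasmic reticulum. UBXN2A is closely related to p47 (gene Nsfl1c) and p37 (gene Ubxn2b), and has been linked to the ubiquitin ligase CHIP (gene Stub1) and the mitochondrial chaperone mortalin (gene Hspa9). Fam126a encodes hyccin, which with TTC7 and EFR3 proteins holds the lipid kinase PI4KA at the plasma membrane. That complex makes a phosphoinositide from which further signalling lipids are built, and loss of hyccin in people causes hypomyelination with congenital cataract.

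Ubxn2a (ENSMUSG00000020634) lies on the minus strand of GRCm39 chromosome 12, from 4929032 to 4957705, and Fam126a (ENSMUSG00000028995) on the minus strand of chromosome 5, from 24120274 to 24235688. The 250 bases before each start are shown because both genes stood higher in the same libraries, and those of Mfsd2b because it is the nearest neighbour of Ubxn2a and had another pattern. They are RefSeq promoters of build GRCm38.p6, so their coordinates differ from those of the count table. The RefSeq start need not match the gene span given above, and whether a window lies partly within that span was not checked. The windows lie on the minus strand at chr12:4907554-4907803 for Ubxn2a, chr5:24030313-24030562 for Fam126a and chr12:4874360-4874609 for Mfsd2b. Capitals mark any match, on either strand, to the box GGGCGG, to CCAAT, to the motif CACCC or to the GATA core GATAA.
Ubxn2a: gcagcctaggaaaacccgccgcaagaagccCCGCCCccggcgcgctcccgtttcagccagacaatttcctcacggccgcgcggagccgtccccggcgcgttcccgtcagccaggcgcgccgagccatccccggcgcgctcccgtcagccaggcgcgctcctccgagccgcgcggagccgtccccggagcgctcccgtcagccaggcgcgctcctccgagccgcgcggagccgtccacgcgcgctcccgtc
Fam126a: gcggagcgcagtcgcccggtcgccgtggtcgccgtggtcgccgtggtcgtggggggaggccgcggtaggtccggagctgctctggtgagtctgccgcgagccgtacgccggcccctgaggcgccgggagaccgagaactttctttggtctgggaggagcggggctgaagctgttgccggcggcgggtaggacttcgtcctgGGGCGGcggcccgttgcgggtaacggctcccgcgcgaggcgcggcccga
Mfsd2b: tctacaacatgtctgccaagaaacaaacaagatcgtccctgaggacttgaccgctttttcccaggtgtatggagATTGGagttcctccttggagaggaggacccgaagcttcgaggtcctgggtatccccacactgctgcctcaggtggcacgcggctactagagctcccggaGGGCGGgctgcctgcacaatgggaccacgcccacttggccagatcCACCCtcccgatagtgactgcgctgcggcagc

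Both member promoters were rich in CpG. That of Ubxn2a had 77.2% G and C and 44 CpG, more CpG than 99.5% of the 32851 promoters in the table, and that of Fam126a had 74.4% and 38 CpG, more than 98.1% of them. The Mfsd2b window had 59.6% G and C and 12 CpG, where the median promoter had 52.4% and 6. GGGCGG, the box bound by Sp1 family factors, occurred 1 time in each of the 3 windows and in 32.7% of all promoters. GATAA, the core of sites for GATA factors, occurred in none of the 3 windows and in 22.6% of all promoters. CACCC occurred in the Mfsd2b window and in 52.0% of all promoters, and CCAAT in the Mfsd2b window and in 33.8%. The Ubxn2a window also held 2 exact copies of a run of 48 bases. These are matches of letters only.

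Ubxn2a had 54.5, 54.3 and 49.7 CPM in fucoidan replicates 1, 2 and 3, against 24.8, 26.7, 28.6, 28.2 and 28.7 CPM in saline replicates 1 to 5. CPM here are read counts over library size scaled by TMM factors, which set the libraries to a common level for most genes. The 3 fucoidan libraries lay within 10% of each other, the 5 saline libraries were nearly as close, and the groups did not overlap. The means were 52.8 ± 2.72 CPM in fucoidan libraries (SD, n = 3) and 27.4 ± 1.66 CPM in saline libraries (SD, n = 5), a log2 fold change of 0.95 (SE 0.0925). The lowest fucoidan library stood 1.73 times above the highest saline library. These values rest on 788, 712 and 452 reads in the fucoidan libraries and 439 to 548 in the saline libraries. In such a bulk sample, more cells of a type and more RNA per cell cannot be told apart.

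Fam126a had 88.1, 103.8 and 96.1 CPM in fucoidan replicates 1, 2 and 3, against 54.6, 55.1, 47.4, 52.2 and 51.3 CPM in saline replicates 1 to 5. Again the groups did not overlap, and the lowest fucoidan library stood 1.60 times above the highest saline library. The means were 96.0 ± 7.90 CPM in fucoidan libraries (SD, n = 3) and 52.1 ± 3.09 CPM in saline libraries (SD, n = 5), a log2 fold change of 0.88 (SE 0.0932). Counts were 875 to 1362 in the fucoidan libraries and 765 to 980 in the saline libraries. Per kilobase of gene length the order of the genes turned round. Ubxn2a stood at 18.7 CPM per kilobase after fucoidan and 9.72 after saline, and Fam126a at 9.49 and 5.15.

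**Figure D1:**
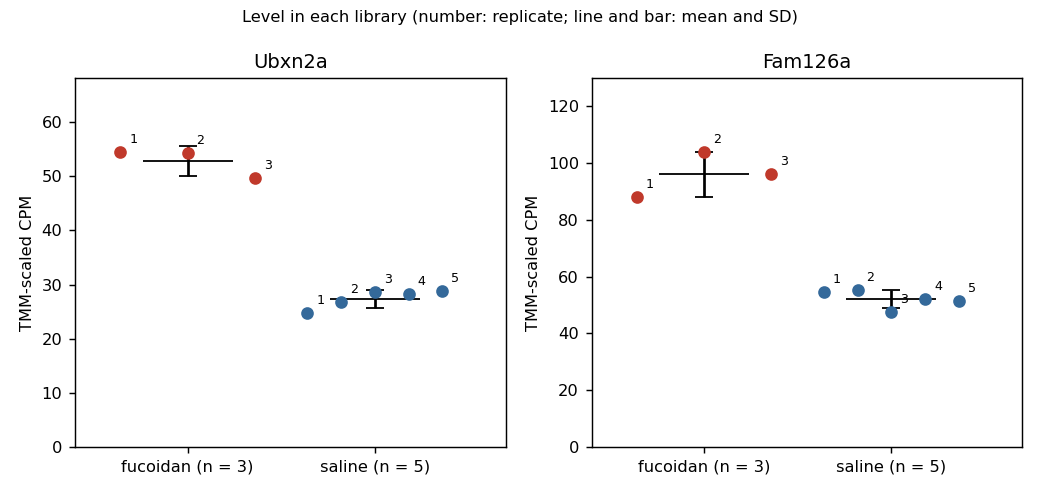
TMM-scaled CPM of Ubxn2a (left) and Fam126a (right) in each of 3 fucoidan and 5 saline libraries, numbered by replicate; lines and bars are means and SD. The fucoidan libraries sit at 49.7 to 54.5 CPM for Ubxn2a and 88.1 to 103.8 CPM for Fam126a, above all saline libraries, which reach 28.7 and 55.1 CPM.

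With edgeR's quasi-likelihood test, 2025 of 14723 tested genes (13.8%) had an adjusted p under 0.05 and are named called here, 9.11% of the tested genes higher and 4.65% lower. Both Ubxn2a and Fam126a were among the 1341 called higher, and among the 11.6% of tested genes with every fucoidan library above every saline library, as their choice implies. Nothing is read from these counts for the members, since the contrast chose them. The SD of log2 CPM within groups was 0.0849 for Ubxn2a and 0.0988 for Fam126a, and the median of the 1341 genes called higher was 0.370. Of those genes, 6 had a smaller SD than Ubxn2a and 15 a smaller SD than Fam126a. Evenness was also part of the choice. Among called risers with a mean CPM within 2-fold, 4 of 381 had a smaller SD than Ubxn2a and 7 of 414 a smaller SD than Fam126a. Among all tested genes within 2-fold, the median SD was 0.171 for 4268 genes around Ubxn2a and 0.161 for 3724 around Fam126a, and 283 and 594 of them had a smaller SD.

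Total counts ran from 13061703 to 15798058 in fucoidan libraries and from 15453636 to 16334932 in saline libraries. Every matched marker of T cells, B cells, natural killer cells and monocytes had counts when summed over the libraries, and so had those of red cells, platelets and neutrophils. The platelet gene Gp1bb, at 16 counts in all, had 0 in fucoidan replicate 2, and the erythroid gene Ahsp was not matched. Haemoglobin transcripts (Hba-a1, Hba-a2, Hbb-bs and Hbb-bt) took 14.2, 13.5 and 24.1% of all counts in fucoidan replicates 1, 2 and 3, against 5.59, 4.55, 8.48, 4.89 and 3.51% in saline replicates 1 to 5. Fucoidan replicate 3 stood apart, with 1.74 times the mean share of the other fucoidan libraries and the lowest TMM factor, 0.697. The labels give 1 date for all libraries. A shared date does not show whether they were prepared together, so nothing could be compared within batches.

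The members did not follow the haemoglobin share from library to library. Little spread between libraries was part of their choice, so this follows from it and is only described. Fucoidan replicate 3 had the highest share and, for Ubxn2a, the lowest fucoidan level, at 0.913 times the mean of replicates 1 and 2, while Fam126a stood there at 1.00 times that mean. Among saline libraries, whose haemoglobin share of all counts ranged over 2.42-fold, the TMM-scaled levels of both members ranged over 1.16-fold. As CPM over all counts, the scale of that share, Ubxn2a ranged over 1.24-fold and Fam126a over 1.30-fold. On the TMM scale, saline replicate 3, with the highest saline share, had the lowest Fam126a level and the second highest Ubxn2a level. That Ubxn2a level, 28.6 CPM, lay close to those of saline replicates 4 and 5, at 28.2 and 28.7 CPM. As CPM over all counts, saline replicate 3 was again lowest for Fam126a, but only saline replicate 1 was lower for Ubxn2a. Because the groups do not overlap in haemoglobin share, no correlation over all 8 libraries is given, and within groups there are too few libraries for one.

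Red cell genes behaved otherwise over the same libraries, a contrast that the choice of even members made likely. Of 18 tested erythroid markers, all stood higher in fucoidan replicate 3 than in the mean of replicates 1 and 2, by 1.20 to 3.82 times with a median of 2.26, and the 12 tested platelet markers by 1.76 to 2.23 times. Alas2, the first enzyme of haem synthesis in red cells, was 2.25 times higher there, and Itga2b, the platelet integrin chain, 2.15 times. The 8 natural killer markers stood lower in that library, at 0.688 to 0.967 times, among them the granzyme Gzma at 0.702 times. Of the 1341 genes called higher, 87.4% stood above the mean of replicates 1 and 2 in fucoidan replicate 3, with a median of 1.58 times.

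**Figure D2:**
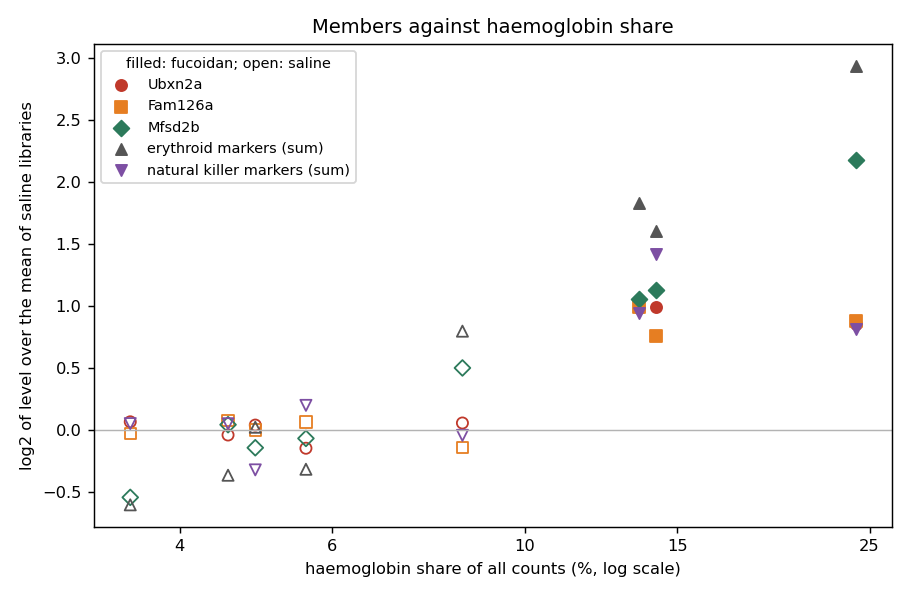
Level in each library over the mean of the saline libraries (log2) against the haemoglobin share of all counts (percent, log axis), for Ubxn2a, Fam126a, Mfsd2b and the summed erythroid and natural killer markers; filled symbols are 3 fucoidan and open symbols 5 saline libraries. From a share of 14.2% to one of 24.1%, Mfsd2b and the erythroid sum go up while both members, chosen for little spread, stay near 1 on the log2 axis.

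**Figure D3:**
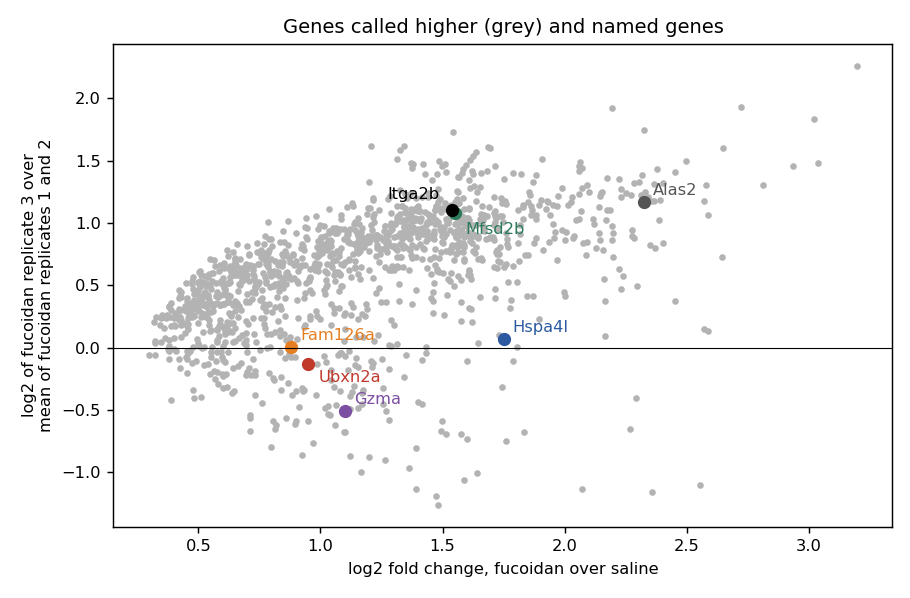
Each grey point is 1 of 1341 genes called higher after fucoidan, with its log2 fold change on the x axis and, on the y axis, the log2 ratio of fucoidan replicate 3 to the mean of fucoidan replicates 1 and 2. Ubxn2a, Fam126a and Hspa4l lie near 0 on the y axis, below Mfsd2b, Alas2 and Itga2b and above Gzma. Ubxn2a and Fam126a were chosen for little spread.

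Marker sums of other cell types moved with the groups as well, and the counts of called markers below stand against 9.11% of all tested genes called higher and 4.65% called lower. Summed natural killer markers were 533 to 808 CPM after fucoidan and 243 to 348 CPM after saline, with 8 of 8 called higher. This became 6 without fucoidan replicate 1. It was 7 without fucoidan replicate 2 or 3, with total counts only or with no filter on low counts. Summed erythroid markers were 16140 to 40520 CPM and 3502 to 9228 CPM, with 17 of 18 called higher, and summed platelet markers 7824 to 16890 CPM and 2606 to 5564 CPM, with 12 of 12 called higher. With no filter on low counts, 12 erythroid and 8 platelet markers were called higher. Erythroid calls were 16 with total counts only and 15 without fucoidan replicate 3. T cell markers summed to 986 to 1363 CPM after fucoidan and 698 to 868 CPM after saline, with 4 of 9 called higher and the lowest log2 fold change at 0.30. That count of T cell markers was 0 with total counts only or the haemoglobin share as a covariate, 2 with replicate blocks or upper-quartile factors, and 8 with DESeq2. It was also 2 in fits that omitted saline replicate 3, saline replicate 4, fucoidan replicate 1 or fucoidan replicate 3. B cell markers summed to 2529 to 3664 CPM after fucoidan and 4315 to 5574 CPM after saline, with 8 of 9 called lower, 4 in fits that omitted saline replicate 3, saline replicate 4 or fucoidan replicate 3 and 5 in the fit that omitted fucoidan replicate 2. Monocyte sums overlapped, at 3147 to 4093 CPM and 3256 to 5909 CPM, but 2 of 9 monocyte markers were called higher, 1 in the fit that omitted fucoidan replicate 2. These were Ace, at 258.1 to 395 CPM after fucoidan and 179.4 to 241.0 CPM after saline (log2 0.71, edgeR adjusted p = 0.0109), and Fcgr4, at 42.5 to 45.6 CPM and 19.7 to 30.4 CPM (log2 0.90, adjusted p = 0.00484), both named after their values were seen. The 9 monocyte markers had a median log2 fold change of -0.08 and a lowest of -0.55. Omitting saline replicate 1 gave 3 higher, and total counts only gave 1 higher and 2 lower. Each of DESeq2, replicate blocks, upper-quartile factors and no filter on low counts called 1 monocyte marker lower. Neutrophil sums overlapped too, at 593 to 758 CPM and 550 to 1274 CPM, with 0 of 9 called, but 2 higher in the fit that omitted saline replicate 1 and 3 lower with total counts only. With the haemoglobin share as a covariate, 0 markers of these 7 cell types were called. The part of these cell types in the levels of Ubxn2a and Fam126a was not tested.

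The scale on which the members are read bears on their evenness. As CPM over all counts, without TMM factors, Ubxn2a had 49.9, 51.3 and 34.6 in fucoidan replicates 1, 2 and 3 against 27.1 to 33.5 in saline libraries, and Fam126a 80.6, 98.1 and 67.0 against 48.3 to 62.7. The groups still did not overlap, but fucoidan replicate 3 stood only 1.03 times above the highest saline library for Ubxn2a and 1.07 times for Fam126a. On that scale 5.53% of tested genes stood higher and 33.7% lower without overlap. The log2 fold changes were 0.58 and 0.50 with total counts only, and the median of all genes was -0.42, against -0.04 with TMM scaling. Relative to those medians Ubxn2a stood at 0.99 under both and Fam126a at 0.92 under both. As CPM over non-haemoglobin counts, Ubxn2a averaged 54.3 ± 7.59 (SD) in the 3 fucoidan libraries and 32.1 ± 2.25 (SD) in the 5 saline libraries, and Fam126a 98.6 ± 13.2 and 61.1 ± 4.87.

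With the log2 haemoglobin share as a covariate, the log2 fold change of Ubxn2a was 1.05 (SE 0.227) and that of Fam126a 1.01 (SE 0.228). In the same fit the erythroid markers had a median of 0.08 and the platelet markers one of -0.01, against 2.28 and 1.58 without it, while natural killer markers had a median of 1.24, against 1.07. The covariate is itself a share of red cell transcripts, and the members were chosen for little spread. A contrast between members and red cell markers was therefore likely from the start and is only described. The fit called 1 gene (0.00679% of those tested), the monocyte receptor gene Cd300e (adjusted p = 0.0426), named after its value was seen, and 936 genes had an unadjusted p under 0.05. The covariate correlates with the group at 0.897, so in this fit red cell content and treatment cannot be told apart.

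Mfsd2b, which encodes a sphingosine phosphate exporter of red cells and platelets, begins 4.7 kb from the end of Ubxn2a on the same strand (ENSMUSG00000037336, GRCm39 chromosome 12, 4912440 to 4924359). It had 229.9, 218.7 and 475 CPM in fucoidan replicates 1, 2 and 3, against 100.5, 108.5, 148.9, 95.4 and 72.3 CPM in saline replicates 1 to 5. It was highest in the library of each group with the highest haemoglobin share, which Ubxn2a was not. Its log2 fold change was 1.55 (SE 0.266, adjusted p = 0.00478), and -0.12 with the haemoglobin share as a covariate. Atad2b, a bromodomain ATPase gene 9.6 kb on the other side, had a log2 fold change of -0.21 (adjusted p = 0.323). None of the 3 other protein-coding genes within 100 kb of Ubxn2a and none of the 3 within 100 kb of Fam126a was called. The processed pseudogene Gm3724, 87.6 kb from Fam126a, was called higher (log2 1.34), as were 9.11% of all tested genes. No gene overlaps the span of Ubxn2a. Fam126a shares part of its span with the lncRNA ENSMUSG00000120302 on the same strand (chromosome 5, 24117537 to 24127708), which had 122, 108 and 163 counts in the fucoidan and 20 to 82 in the saline libraries. That lncRNA was called higher too (log2 2.17). In fucoidan replicate 3 it stood at 2.15 times the mean of replicates 1 and 2. Reads in the shared stretch may have been assigned to either gene, so the level of Fam126a is uncertain to that extent.

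The close relatives of both members did not pass the test. Ubxn2b had 12.2 to 13.5 CPM in fucoidan libraries, against 10.4 to 12.1 CPM in saline libraries, with no overlap, with a log2 fold change of 0.20 (SE 0.123, adjusted p = 0.316), and -0.17 with total counts only. Nsfl1c averaged 44.6 ± 2.60 CPM in fucoidan libraries (SD, n = 3) and 48.2 ± 1.90 CPM in saline libraries (SD, n = 5), with a log2 fold change of -0.11 (adjusted p = 0.460). Fam126b, the second hyccin gene, averaged 13.1 ± 2.01 CPM (SD, n = 3) and 16.9 ± 6.49 CPM (SD, n = 5), with a log2 fold change of -0.37 (adjusted p = 0.421). Per kilobase, Ubxn2a stood above Nsfl1c after fucoidan, at 18.7 and 11.3 CPM, and below it after saline, at 9.72 and 12.2 CPM.

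The p97 ATPase and its best known partners did not pass the test, while 3 of 17 tested genes of the p97 core and its other cofactors did, against 13.8% of all tested genes. Vcp itself averaged 190 ± 15.1 CPM in fucoidan libraries (SD, n = 3) and 169 ± 11.1 CPM in saline libraries (SD, n = 5) (log2 0.17, adjusted p = 0.299). Ufd1 and Nploc4, the pair that feeds p97 with tagged proteins, stood at log2 -0.14 and 0.14 (adjusted p = 0.386 and 0.355). Stub1 and Hspa9, the reported partners of UBXN2A, stood at -0.01 and 0.13 (adjusted p = 0.973 and 0.529). Total counts only, which move the median of all genes to -0.42, turn the signs of Vcp, Nploc4 and Hspa9 along with it, and median-of-ratios factors turn that of Stub1.

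Of 55 tested genes of p97 and of protein removal from the endoplasmic reticulum, Ubxn2a aside, 4 rose and 2 fell, 10.9% against 13.8% of all tested genes. Their median log2 fold change was -0.00, against -0.04 for all tested genes. Ubxn4, a UBX protein that brings p97 to the endoplasmic reticulum, rose, with 118.9, 110.0 and 104.7 CPM in fucoidan replicates 1, 2 and 3 against 71.6 to 85.2 CPM in saline libraries (log2 0.54, SE 0.0938, edgeR adjusted p = 0.00494). Its groups did not overlap, and like Ubxn2a it was lowest of its group in fucoidan replicate 3. Derl1, a channel component for proteins leaving the endoplasmic reticulum, and Edem1, a lectin that selects misfolded glycoproteins, rose by log2 0.81 and 0.67 (adjusted p = 0.00791 and 0.00640). Both were highest in fucoidan replicate 3, at 1.53 and 1.42 times the mean of replicates 1 and 2. Fam104a, a nuclear cofactor of p97, rose by log2 0.51 (adjusted p = 0.0424), while Rhbdd1, a rhomboid protease, fell by 0.63 on the log2 scale and Zfand1, which brings p97 to stress granules, fell by 0.60 (adjusted p = 0.0142 and 0.0311).

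Fitting replicate numbers as blocks called 10.6% of all tested genes and 7 of these 55, 6 higher and 1 lower, so that the share of the list then stood above that of all genes. Of the 23 tested genes of protein removal from the endoplasmic reticulum, 5 were then called higher, against 2 without blocks. Saline replicates 4 and 5 have no fucoidan library of their number. With blocks the group difference therefore rests on replicates 1 to 3, so these changes cannot be laid to pairing alone. Fam104a and Zfand1 did not pass with blocks (adjusted p = 0.0629 and 0.0854). Leaving out 1 library called 15.3, 13.5, 11.4, 8.93 and 11.5% of all tested genes for saline replicates 1 to 5, and 9.82, 9.64 and 6.10% for fucoidan replicates 1 to 3. Zfand1 lost its call without any one of the fucoidan libraries, and without saline replicate 3 or 4 (0.0563 to 0.129). Rhbdd1 lost it without fucoidan replicate 2 or 3 (0.0613 and 0.0805). Fam104a lost it with saline replicates 2, 4 or 5 left out, and likewise for fucoidan replicates 2 or 3 (0.0573 to 0.203). Ubxn4, Derl1 and Edem1 passed in each of these fits. The count of the list was 3 without fucoidan replicate 2 or 3, and 22, of which 21 lower, with total counts only, where 37.7% of all tested genes were called and Ubxn4 (log2 0.17, adjusted p = 0.397) and Edem1 (0.26, adjusted p = 0.127) were not.

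Of 6 tested partners in the kinase complex that holds hyccin, 1 was called, against 13.8% of all tested genes. Pi4ka, the catalytic subunit, had 135.6, 129.8 and 133.5 CPM in fucoidan replicates 1, 2 and 3, against 126.5 to 142.0 CPM in saline libraries, with a log2 fold change of -0.00 (SE 0.0867, adjusted p = 0.990). The scaffolds Ttc7 and Efr3a stood at -0.03 and 0.03 (adjusted p = 0.906 and 0.874), and Efr3b lay below the filter on low counts. The sign of these small values changes with the scaling or with single libraries. Ttc7b, the alternative scaffold, rose in the edgeR fit, averaging 38.3 ± 5.81 CPM in fucoidan libraries (SD, n = 3) and 27.4 ± 1.76 CPM in saline libraries (SD, n = 5) (log2 0.48, SE 0.115, adjusted p = 0.0186).

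Of 27 tested genes of the complex and of phosphoinositide supply, Fam126a aside, 3 rose and 1 fell, 14.8% against 13.8% of all tested genes, with a median log2 fold change of 0.03. Cds1, which makes the lipid precursor of phosphatidylinositol, and Pi4k2b, a kinase that makes the same phosphoinositide as PI4KA, rose by log2 0.74 and 0.62 (adjusted p = 0.0379 and 0.0282). Pip5k1c, a kinase that acts on that product, fell by 0.35 on the log2 scale (adjusted p = 0.0251). Among these 4, Pi4k2b alone passed with replicate blocks (adjusted p = 0.0456), and Ttc7b, Cds1 and Pip5k1c had adjusted p = 0.0860, 0.104 and 0.0809. Leaving out saline replicate 4 left 0 of the 27 called, as did leaving out fucoidan replicate 3. Leaving out fucoidan replicate 2 left 1, and leaving out saline replicate 5 or fucoidan replicate 1 left 2. With total counts only, 8 were called, all lower.

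**Figure D4:**
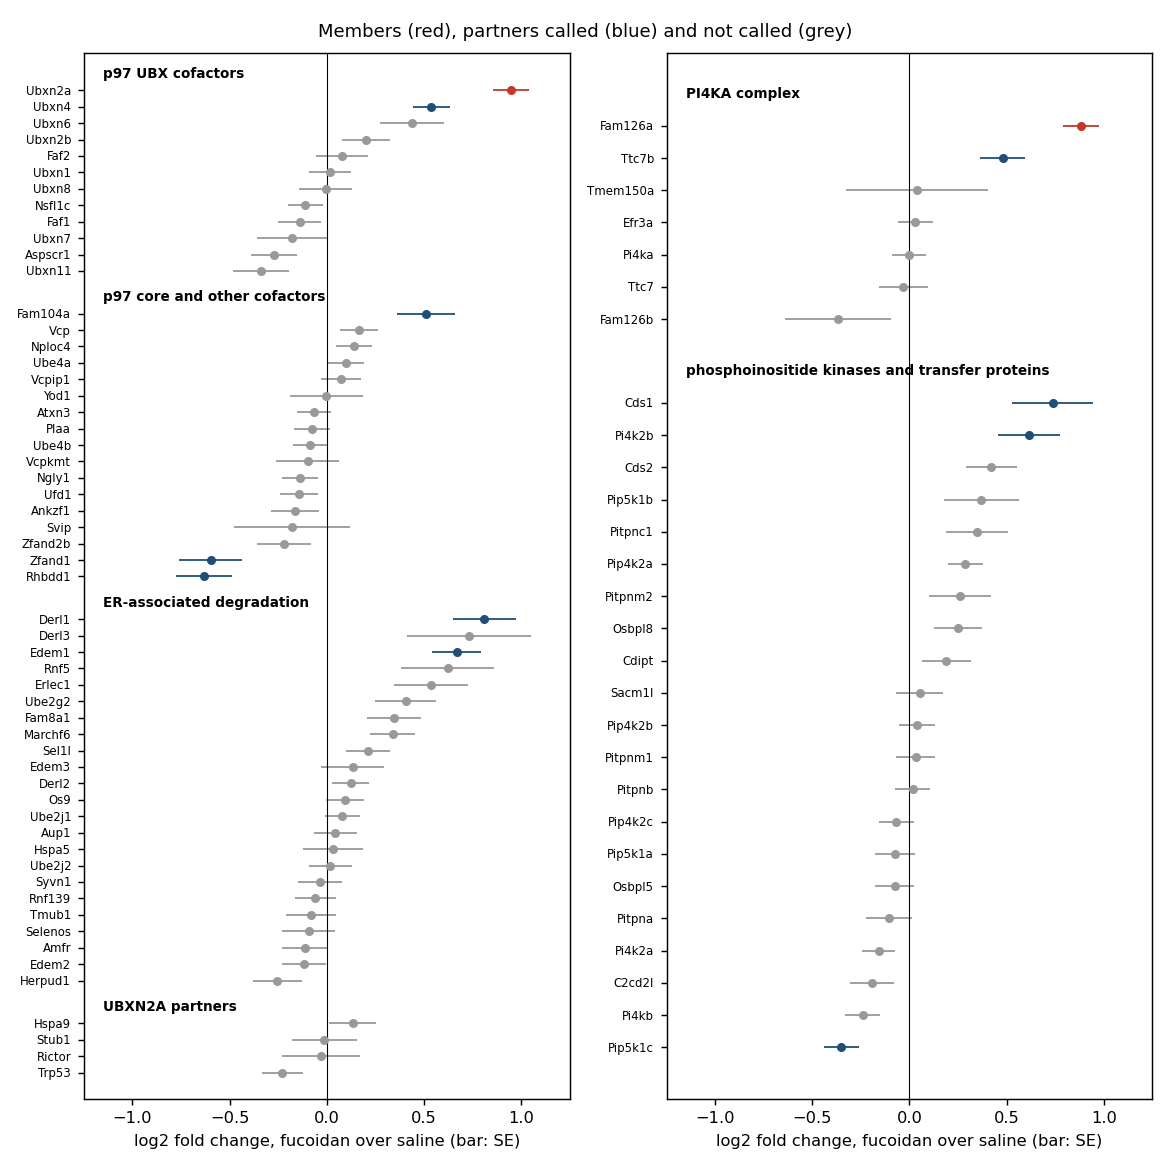
Log2 fold change, fucoidan over saline, with its SE, for tested genes of p97 and endoplasmic reticulum protein removal (left) and of the PI4KA complex and phosphoinositide supply (right), 3 fucoidan and 5 saline libraries. Ubxn2a at 0.95 and Fam126a at 0.88 are the highest values of their lists, and 6 of 55 and 4 of 27 other genes are called. Both members were chosen for being higher in this contrast, so their rank is only described.

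Among 9621 protein-coding genes with a mean of at least 5 CPM, the log2 levels of Ubxn2a and Fam126a over the 8 libraries correlated at Pearson's r = 0.953. Both genes were chosen for standing higher in every fucoidan library with little spread, so a high r over the groups was fixed by that choice. Within groups their orders differed on the TMM scale. Ubxn2a was highest in fucoidan replicate 1, though at 54.46 CPM against 54.29 in replicate 2, and Fam126a was lowest there. Saline replicate 3 was second highest for Ubxn2a and lowest for Fam126a. As CPM over all counts or over non-haemoglobin counts, both members were highest in fucoidan replicate 2 and lowest in replicate 3. On those scales saline replicate 1 was lowest for Ubxn2a and saline replicate 3 for Fam126a. The r of other genes with the members has a like limit. It is high for any gene with a wide gap between groups and little spread within them. By r over all libraries, 10 genes exceeded r = 0.95 with Ubxn2a and 9 with Fam126a. Hspa4l, which encodes a chaperone of the HSP110 family, came first for both, at r = 0.989 with Ubxn2a and 0.974 with Fam126a. It had 75.0, 76.7 and 79.4 CPM in fucoidan replicates 1, 2 and 3, against 20.7, 24.3, 24.0, 21.9 and 23.5 CPM in saline replicates 1 to 5, a log2 fold change of 1.75. After it came Itgax, Ubxn4, the ubiquitin-conjugating enzyme gene Ube2q2 and the lipid flippase gene Atp8b2 for Ubxn2a (r = 0.971, 0.966, 0.964 and 0.963). For Fam126a they were Havcr2, which encodes the receptor TIM-3, the phosphatase gene Ptpn22, Cd244a, a receptor of natural killer cells, and Ascc2 (r = 0.962, 0.958, 0.957 and 0.956). Mfsd2b, though beside Ubxn2a in the genome, had r = 0.826 with it.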

How the data were processed

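The authors deposited a table of raw counts per gene with names, coordinates and gene lengths (in bases, with no rule stated). Per the submitters' processing notes, cutadapt 4.0, Trimmomatic 0.39 and HISAT2 2.2.1 were used with genome GRCm39 (mm39). No source used here names the counting program, annotation release or strand setting. Libraries were poly(A) selected and read as pairs of 150 bases, per the labels' protocols, and grouped by title.

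Of 56748 genes, 14723 passed filterByExpr in edgeR 4.0.16 (R 4.3.3) and were tested with TMM factors and the robust quasi-likelihood test, with Benjamini-Hochberg adjustment over all of them. A gene was called at an adjusted p under 0.05. SE was taken as the size of a log2 fold change over the root of its F statistic. Fold changes are fucoidan over saline. DESeq2 1.42.0 was an alternative. Likeness used log2 CPM with a prior count of 2. The procedure was tested on simulated data.

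The members and lists were chosen with earlier results of these data known. Named genes are the members, their paralogues, main partners, up to 4 called members of each pathway list (or the 1 or 2 with the smallest p where none was called), protein-coding neighbours within 100 kb, Mfsd2b, the 5 genes most alike each member, and the most abundant marker of the cell types described. Not all are described.

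With group means removed, like-numbered libraries correlated at 0.177, 0.233 and 0.144, and unlike-numbered ones at -0.261 to 0.144 (fucoidan 2 with saline 5). All like-numbered values passed 0.1, the level set for treating numbers as pairs, so the replicate number was also fitted as a block, although the labels name no pairing. The labels call the libraries biological replicates without naming mice, so p-values measure the spread between these libraries. Promoters are RefSeq sequences (GRCm38.p6), matched by symbol for 3 of 3 genes. Protein sequences were not used here.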

Additional observations from a re-analysis of the deposited data

Results flagged for a closer look

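In 4 of the sets of saline values checked, 1 library lay far from the other 4, by the ratio of its gap to the whole range (chance flags about 1 in 20 such sets, and 35 sets were checked). Ufd1 was at 48.0 CPM in saline replicate 3, where the saline median was 40.7 CPM. Edem1 was at 226.8 CPM in saline replicate 3, the saline library with the highest haemoglobin share, where the median was 208 CPM. Zfand1 was at 17.0 CPM in saline replicate 4, where the median was 12.7 CPM. Hspa9 was at 94.9 CPM in saline replicate 2, where the median was 123.7 CPM. Neither Ubxn2a nor Fam126a had such a library.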

How the results depend on the processing

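Ubxn2a and Fam126a stayed higher in every alternative run, which their choice made likely. Their log2 fold changes were 1.05 and 1.01 with the haemoglobin share as a covariate, where neither was called. They were 0.58 and 0.50 with total counts only. Leaving out 1 library gave 0.91 to 1.00 and 0.82 to 0.94. Over all genes, 2025 calls became 1 with the covariate and 5553 with total counts only (4743 lower), and 928 to 2224 with 1 library left out, 928 without fucoidan replicate 3 and 1291 without saline replicate 4. Upper-quartile factors gave 1241 higher of 2230. For p97 and endoplasmic reticulum genes, 6 calls became 7 with the replicate block, 0 with the covariate, 22 with total counts only and 3 to 7 with 1 library left out. For PI4KA and phosphoinositide genes, 4 calls became 1 with the replicate block, 0 with the covariate, 8 with total counts only and 0 to 5 with 1 library left out. Total counts only and upper-quartile factors were chosen after seeing the data.

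Some values turned sign. Median-of-ratios factors gave Stub1 0.0097 and Pi4ka 0.0186, DESeq2 0.0097 and 0.0185, and leaving haemoglobin genes out of the scaling gave Pi4ka 0.0008. The replicate block gave Pi4ka 0.0414. With the covariate, Fam126b was 0.30, Mfsd2b -0.12, Vcp -0.092, Nploc4 -0.10, Fam104a -0.17, Derl1 -0.0199, Pi4ka 0.0322, Cds1 -0.12 and Atad2b 0.19. With total counts only, Ubxn2b was -0.17, Vcp -0.22, Nploc4 -0.24, Hspa9 -0.23, Efr3a -0.35 and Ube2q2 -0.051, and upper-quartile factors gave Efr3a -0.0201. With 1 library left out, Stub1 ran from -0.11 to 0.11, Pi4ka from -0.0204 to 0.0208, Ttc7 from -0.096 to 0.044 and Efr3a from -0.011 to 0.077. The cause was not tested.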
